A study of Solanum virginianum with 2 samples.

Results

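The small RNAs described here are 13 sequences from eggplant pistils that carry the names of 7 miRNA families of the nightshade family (Solanaceae): miR5300, miR5301, miR6022, miR6024, miR6025, miR6026 and miR6027. They were chosen by name, as were miR6019 and miR6023, for which the small RNA library listed 0 sequences and the degradome library 0 pairs. The 13 were among 686 listed sequences, and they had 179 of the 18764 predicted small RNA and transcript pairs, on 165 of 12937 transcripts. Each assay was a single library from 'B3-3' pistils, a long purple eggplant, with short-styled (S-morph) and long-styled (L-morph) flowers of the same plants mixed, so nothing can be said about a difference between morphs. Per the labels, the buds were 1 to 3 and 3 to 6 days past budding, while the extraction protocol adds phase 5 (days 13 to 15) to the library of RNA 5′ ends (degradome), in which a cut transcript leaves reads at the cut. The labels' organism field reads Solanum virginianum and the series title Solanum melongena, and no further genotype, treatment or control group was named. With 1 library per assay there was no replicate, so no test between conditions was made, and the 95% intervals given (Clopper-Pearson, exact) take in counting error and nothing else.

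Plants carry large sets of immune receptor genes. Many encode intracellular proteins with a nucleotide-binding site and leucine-rich repeats (NBS-LRR), which recognise pathogen molecules and trigger local cell death. Others encode membrane receptors whose leucine-rich repeats (LRR) lie outside the cell. In tomato, tobacco and potato, miRNAs of these families are known to cut transcripts of NBS-LRR or receptor-like genes. Many of them are 22 nt long, a length known to start the production of secondary small RNAs from the cut transcript, so that 1 miRNA can act on a whole group of related receptor genes.

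The sequences follow because the predicted targets and the relations between families are set by their letters. Each is written 5′ to 3′ with the seed (bases 2 to 8) in capitals, and the prefixes sly, stu and nta stand for tomato, potato and tobacco names.
sly-miR5300_1ss2CT: uUCCCAGUccaggcauuccaac
sly-MIR5301-p3: uCUUUCCUacuccucccauacc
sly-miR5301: uGUGGGUGggguggaaagauu
sly-MIR6022-p3_1ss20TC: uUAGUGAUggaagggagaacau
stu-MIR6022-p3: uUCUCCUUuccaucacuaacu
stu-MIR6022-p5_1ss2AG: uGUUCUCCuuuccaucacuaacu
sly-miR6024_1ss20AC: uUUUAGCAagaguuguuuuccc
nta-MIR6025a-p5_1ss8AG: aCAAUUGGgauaacaucuaggu
stu-miR6025: uACCAACAauugagauaacauc
stu-MIR6025-p3: cUUGAUGUuaucucaguguug
sly-miR6026: uUCUUGGCuagaguuguauugc
sly-MIR6026-p5_1ss12TC: cUUUGAUUuggcaauacaacu
sly-miR6027_1ss8TC: uGAAUCCCucggcuauccauaa
The 13 sequences had 13 different seeds. Of the 13 names, 7 end in a code that was read as 1 substitution against the known miRNA, with positions counted from 1 at the 5′ end, and in 7 of 7 the eggplant sequence had the base that the code gives. In 4 of the 7 the substitution lay within the seed: C2U in miR5300, A2G in stu-MIR6022-p5, A8G in nta-MIR6025a-p5 and U8C in miR6027. The other 3 were U20C in sly-MIR6022-p3, A20C in miR6024 and U12C in sly-MIR6026-p5.

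Together the 13 sequences had 11465 of 135737 listed reads (8.45%, 8.30 to 8.60%), but few of them were abundant. The miR5300 sequence had 6421 reads (4.73%, 4.62 to 4.84%) and ranked 5 among the 686. The sly-MIR5301-p3 sequence had 2398 reads (1.77%, rank 12). The miR6027 sequence had 1610 reads (1.19%, rank 19), and miR6024 had 782 (0.576%, 0.537 to 0.618%, rank 27). These 4 sequences supplied 97.8% of the reads of all 13, and their intervals did not overlap. Far below them, sly-MIR6022-p3 had 140 reads, sly-miR5301 had 60 and sly-miR6026 had 28. The remaining 6 sequences had between 1 and 9 reads, and the 3 sequences of miR6025 had 7 reads in all. The intervals of these 6 overlapped.

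**Figure D1:**
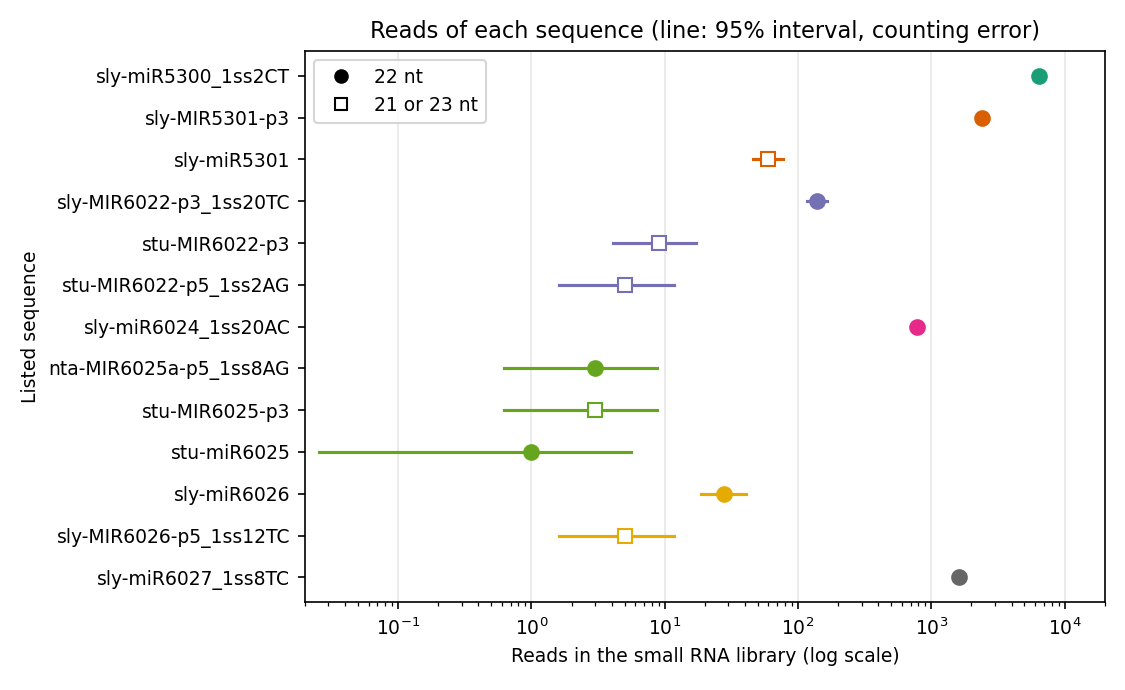
Reads of the 13 sequences in the small RNA library, on a log axis, with exact 95% intervals as lines. Filled circles are 22 nt sequences and open squares those of 21 or 23 nt, and colours mark the family. The sequences of miR5300, MIR5301-p3, miR6027 and miR6024 lie between 782 and 6421 reads, and the other 9 at 140 or fewer.

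Nearly all reads of these families were 22 nt long. Of the 13 sequences 8 had 22 nt, and they held 11383 of the 11465 reads (99.3%, 99.1 to 99.4%). Among the 673 other listed sequences 66 had 22 nt, with 36.3% of the reads (36.0 to 36.6%). No sequence of the 13 had 24 nt, the length of 268 of the 673 others. Reads starting with U, the first base that the plant Argonaute AGO1 is known to prefer, made up 99.9% of the reads of the 13 and 77.1% of the others. Each large share is set by the same 4 abundant sequences. Neither trait is particular to these families. Among the others, sly-miR482b_1ss9AG of the miRNA family miR482 (32546 reads) also had 22 nt and a first base of U.

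In several families the listed sequences were the opposite strands of a short duplex, as the strands of a miRNA and its partner (miRNA*) are. In a comparison of every pair of names, laid antiparallel without gaps over at least 15 nt and counting G-U pairs, sly-MIR6022-p3 and stu-MIR6022-p5 paired at 21 of 21 positions, with 3′ overhangs of 1 and 2 nt. The 2 strands had 140 and 5 reads. The codes p3 and p5 do not tell the strands apart here: stu-MIR6022-p3 (9 reads) has the same 21 letters as the last 21 of stu-MIR6022-p5, and thus belongs to the strand opposite sly-MIR6022-p3. For miR5301 the strands paired at 16 of 20 positions with 3′ overhangs of 1 and 2 nt. The strand that bears the plain name sly-miR5301 had 60 reads and its partner sly-MIR5301-p3 had 2398, a ratio of 40.0. For miR6025, nta-MIR6025a-p5 and stu-MIR6025-p3 paired at 17 of 20 positions, with 3 reads each. The forms sly-miR6026 and sly-MIR6026-p5 paired at 11 of 19 positions without gaps, no more than names of different families did, whose 70 pairs had at most 14 paired positions.

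The 2 most abundant sequences resemble miR482, a miRNA family that is shared by many plants and acts on NBS-LRR transcripts. The sly-MIR5301-p3 sequence had the same seed as hbr-MIR482-p3_1ss5GT (4 reads) and matched it at 20 of 22 positions.
sly-MIR5301-p3: uCUUUCCUacuccucccauacc
hbr-MIR482-p3_1ss5GT: uCUUUCCUacuccacccauucc
It matched the most abundant miR482 sequence, sly-miR482b_1ss9AG (32546 reads), at 17 of 22 positions. The partner strand sly-miR5301 in turn shared its seed with stu-MIR482b-p5_1ss15TC (7 reads), with 16 of 21 matching positions. The miR5300 sequence matched sly-miR482a at 16 of 21 positions when shifted by 1 nt, and its seed occurred in 0 other listed sequences. Among the families themselves miR6024 and sly-miR6026 were the most alike, with 16 of 21 matching positions at a shift of 1 nt and different seeds. The tobacco and potato forms of miR6025 overlapped over 17 nt at a shift of 5 nt and matched at 16 of them, so they lie on the same strand.

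The predicted transcripts of these families included many immune receptors. A transcript was counted as NBS-LRR when its symbol named such a gene and its deposited gene ontology terms gave apoptosis together with defense, hypersensitive or innate immune response. By this rule 49 of the 165 transcripts were NBS-LRR (29.7%, 22.8 to 37.3%), against 56 of the 12772 transcripts predicted for other small RNAs only (0.438%, 0.331 to 0.569%). Prediction rests on sequence match alone, and 59 of the 165 carried no symbol. Of the 49, 9 had degradome reads (18.4%, 8.76 to 32.0%). Reads were listed for 8.62% of the 116 other transcripts of these families and for 5.15% of all transcripts in the table. At 5 of the 9 the same raw and normalized reads were listed, which the interval counts separately. Of the 9, R1A-10 alone had at least 1 normalized read, a limit that 4.06% of all predicted pairs passed. The other kinds among the 165 were 11 membrane LRR receptors, 20 retroelements and 26 further symbols. Retroelements were counted by the symbols pol, TY3B and Tf2 only, so the 26 may hold others.

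The families differed in the receptor genes predicted for them. For miR6024, 21 of 28 transcripts were NBS-LRR (75.0%, 55.1 to 89.3%). By symbol they were 7 of RPPL1, 3 of RPP8-like, 3 of RGA, 2 of R1B and 2 of RPP13L2, with R1A-10, RPM1, At1g50180 and At4g11170. RPP8, RPP13 and RPM1 are resistance genes of Arabidopsis, the former pair against downy mildew and RPM1 against Pseudomonas bacteria, while R1 is a late blight resistance gene of potato and RGA genes lie at a late blight resistance locus of a wild potato. For miR6025, 17 of 33 were NBS-LRR (51.5%, 33.5 to 69.2%), and 13 of the 17 were R1A or R1B genes. For miR6027, 5 of 7 were NBS-LRR (71.4%, 29.0 to 96.3%), namely 3 RPP13-like genes, R1A-3 and R1C-3. For miR5301, 6 of 15 were (40.0%, 16.3 to 67.7%), namely 5 RGA genes and N, the tobacco mosaic virus resistance gene of tobacco. For miR6026, 3 of 25 were (12.0%, 2.55 to 31.2%). The interval for miR6026 lay below those for miR6024 and miR6025, and all other pairs of these 5 intervals overlapped.

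Neither miR5300 nor miR6022 had a predicted NBS-LRR transcript. The 4 transcripts of miR5300 were LAP, LAPA1 and LAPA2, which are leucyl aminopeptidases, enzymes known in tomato from the response to wounding, and 1 without a symbol. For miR6022 the predicted receptors were of the membrane type. The strand with 140 reads, sly-MIR6022-p3, had 10 predicted transcripts, of which 8 were LRR receptors. The closest were GSO1 (Sme2.5_00528.1_g00011.1, nucleotides 943 to 964) and PXL1 (Sme2.5_15882.1_g00002.1, nucleotides 739 to 760), both at an alignment score of 1, where 0 is a perfect match and 4 the highest score listed. GSO1 is a receptor kinase of the embryo surface and root barrier in Arabidopsis. FLS2, the receptor for bacterial flagellin, was predicted with 2 transcripts at scores of 3 and 4.

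Receptors among the predicted transcripts were counted for each strand. The 48 transcripts of stu-MIR6022-p3, from the opposite strand (9 reads), had 3 LRR receptors, RLP12, CLV2 and a GSO1 also predicted for sly-MIR6022-p3, beside 10 retroelements. For miR5301, 6 of the 13 transcripts of sly-MIR5301-p3 were NBS-LRR, and both transcripts of sly-miR5301 were retroelements. For miR6025, 13 of 15 transcripts of nta-MIR6025a-p5 and 8 of 15 of stu-miR6025 were NBS-LRR, against 2 of 9 for the opposite strand stu-MIR6025-p3, which also had the LRR receptor GSO2. For miR6026, where the names did not pair beyond those of different families, the sly-miR6026 sequence had 1 of 5 and sly-MIR6026-p5 2 of 20, with 6 retroelements. No strand was tested against another.

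**Figure D2:**
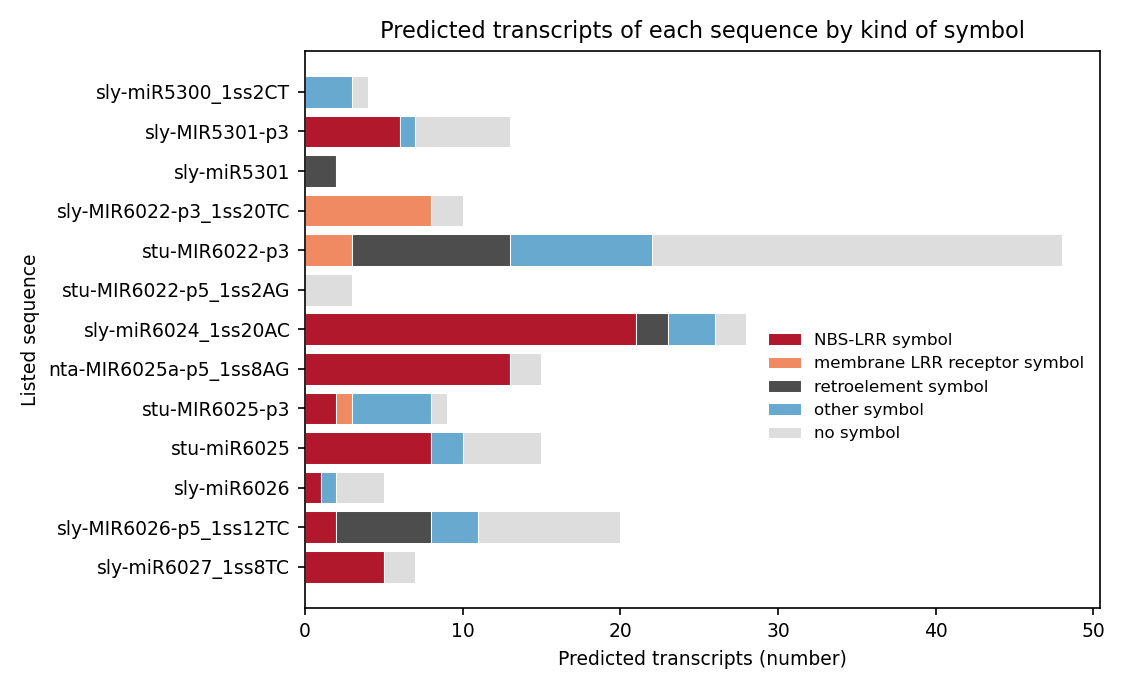
Number of predicted transcripts of each sequence, divided by the kind of symbol in the deposited table. The red NBS-LRR part is longest for miR6024 (21 transcripts), and the membrane LRR receptors (orange) are mostly those of sly-MIR6022-p3 (8 transcripts).

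Some receptor transcripts were predicted for more than 1 sequence. The 6 transcripts shared by nta-MIR6025a-p5 and stu-miR6025 (R1B-23, R1A, R1B-12, R1A-4 and 2 of R1B-19) had sites 5 nt apart in every case, the same distance as the shift between the 2 sequences, so they are single sites named 2 times. Sites of miR6024 and miR6025 lay close together on 2 transcripts. On At1g50180 (Sme2.5_17554.1_g00001.1) the stu-miR6025 site was at nucleotides 565 to 586 and the miR6024 site at 598 to 619, with starts 33 nt apart. On R1B-17 (Sme2.5_23692.1_g00001.1) the nta-MIR6025a-p5 site was at 1013 to 1034 and the miR6024 site at 1051 to 1072, with starts 38 nt apart. The difference of 5 nt between these distances is again the shift between the miR6025 forms, so the spacing was the same on both transcripts. The miR6024 and sly-miR6026 sites on CDK13 (Sme2.5_07837.1_g00001.1) overlapped, starting 1 nt apart at 1393 and 1394.

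The closest matches to NBS-LRR transcripts belonged to miR6025, the family with the fewest reads of the 7. Of the 179 pairs 36 had a score of at most 3 (20.1%, 14.5 to 26.7%), beside 34.4% of all 18764 predicted pairs, which contain the 179, and 107 had a score of 4. Scores of at most 2 were found in 9 pairs. Of these, 5 were NBS-LRR transcripts, all for miR6025 with its 7 reads: RGA3 (Sme2.5_02357.1_g00005.1) at a score of 1 and, at a score of 2, R1B-23, R1B-19 and 2 transcripts of R1B-12. No degradome read was listed for these 5. The other 4 were GSO1 and PXL1 for miR6022, LBD11 for miR6024 and an unnamed transcript for sly-miR6026, and LBD11 was the only 1 of the 9 pairs with reads.

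**Figure D3:**
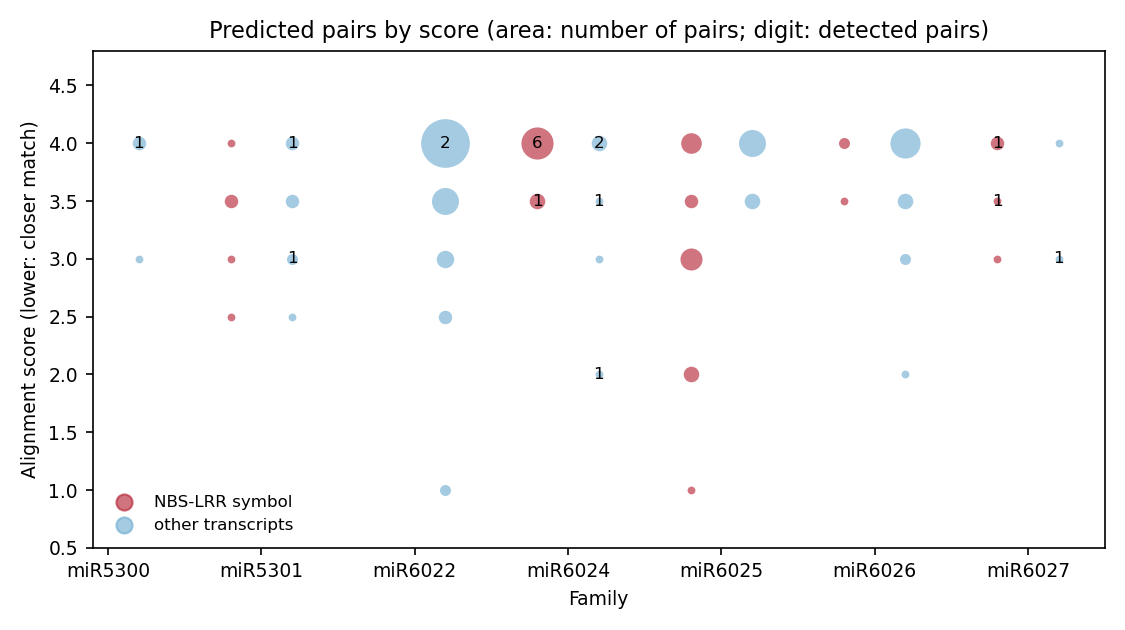
Predicted pairs of the 7 families by alignment score, where the area of a circle is the number of pairs and the digit in it the number with degradome reads. NBS-LRR transcripts (red) with reads lie at scores of 3.5 and 4, while the red circles at scores of 1 to 3 hold none with reads.

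Degradome reads were listed for 19 of the 179 pairs (10.6%, 6.51 to 16.1%), beside 5.38% of all predicted pairs. When at least 1 normalized read was asked for, 8 of the 179 remained (4.47%, 1.95 to 8.62%), beside 4.06% of all predicted pairs. The 19 lay on 19 of the 165 transcripts, beside 5.15% of all transcripts in the table. The miR6024 family held 11 of the 19. Without it, 8 of 151 pairs were detected (5.30%, 2.31 to 10.2%), a share near that of all pairs. Of the 11 miR6024 pairs, 7 had the same 5 raw and 0.714 normalized reads, as 1 set of reads listed 7 times would. The shares and intervals that include these 7 count them as separate detections. By family, reads were found on 11 of 28 transcripts for miR6024 (39.3%, 21.5 to 59.4%), 3 of 7 for miR6027, 2 of 15 for miR5301, 2 of 57 for miR6022 and 1 of 4 for miR5300, beside 4.66% of all combinations of a family and a transcript. For miR6025 and miR6026 the counts were 0 of 33 and 0 of 25. Transcript levels were not measured, so a site without reads may lie on a transcript that was rare or absent in the pistils. In 19 of 19 pairs the position lay opposite base 10 of the small RNA, the usual place of cutting, as it did in 923 of all 1010 detected pairs. The position is the one deposited for pairs already called detected, so this count is no separate evidence of cutting.

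The 9 NBS-LRR transcripts with reads belonged to miR6024 and miR6027, and in 9 of 9 the reads were shared with other places. Sharing is read from the deposited normalized reads, which appear to be raw reads divided by the number of places they match. R1B-17 (Sme2.5_03603.1_g00001.1, nucleotide 547), RPP8L4 (Sme2.5_08033.1_g00001.1, nucleotide 232) and RPM1 (Sme2.5_23940.1_g00001.1, nucleotide 538) each had 5 raw and 0.714 normalized reads at their miR6024 sites, which gives 7 places. The same 5 raw and 0.714 normalized reads were listed for RPP8L2 (Sme2.5_13655.1_g00003.1, nucleotide 130), RPP13L2 (Sme2.5_15343.1_g00001.1, nucleotide 2295), TGA1A (Sme2.5_02745.1_g00006.1, nucleotide 1051) and an unnamed transcript (Sme2.5_17811.1_g00001.1, nucleotide 354). No other position in the whole table had this pair of values. The positions thus number 7, as many as the places, and their normalized reads add up to 5. These are the values that 5 reads listed 7 times would give, and they cannot be assigned to any 1 of the 7 transcripts.

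The authors' categories differed among these 7 positions although the reads were equal. Category 0, by convention a position with the highest signal on its transcript, was given to R1B-17, RPP8L4, RPM1 and the unnamed transcript, each with an authors' p of 0.0270. Category 2 was given to RPP8L2, RPP13L2 and TGA1A, each with an authors' p of 0.782. The symbol TGA1A names a bZIP transcription factor of tobacco, which is no receptor. The identifier of this transcript shares the stem Sme2.5_02745.1 with another RPP8L2. All 7 sites had a score of 4.

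The next sites were on R1A-10 (Sme2.5_00625.1_g00003.1, nucleotide 337) and the unnamed Sme2.5_10933.1_g00001.1 (nucleotide 604). Each had 4 raw and 2 normalized reads at a score of 3.5, which gives 2 places. These values were found at 8 positions of the table, so whether both transcripts hold the same 4 reads cannot be told from them. R1A-10 was in category 1 (authors' p of 0.0108) and the other in category 2 (authors' p of 0.339). The remaining miR6024 sites were LBD11 and RPP8L2. LBD11 (Sme2.5_14308.1_g00001.1, nucleotide 1474) had 2 reads at 1 place and the closest match of the family, a score of 2. Its symbol names a plant LOB-domain protein and its annotation a carbamoyl-phosphate synthase, so its identity is uncertain. RPP8L2 (Sme2.5_02745.1_g00004.1, nucleotide 235) had 1 raw and 0.333 normalized reads. In all, the 11 miR6024 sites summed to 46 raw and 11.3 normalized reads.

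Of the miR6027 sites, RPP13L3 (Sme2.5_00166.1_g00021.1, nucleotide 1186) had 2 raw and 0.200 normalized reads in category 2, spread over 10 places. R1A-3 (Sme2.5_04767.1_g00004.1, nucleotide 1267) and the unnamed Sme2.5_10775.1_g00001.1 (nucleotide 196) had 1 raw and 0.250 normalized reads each. The 3 sites together held 0.700 normalized reads, less than 1 read. The miR6027 signal thus rests on 1 or 2 reads per site that match 4 to 10 places.

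**Figure D4:**
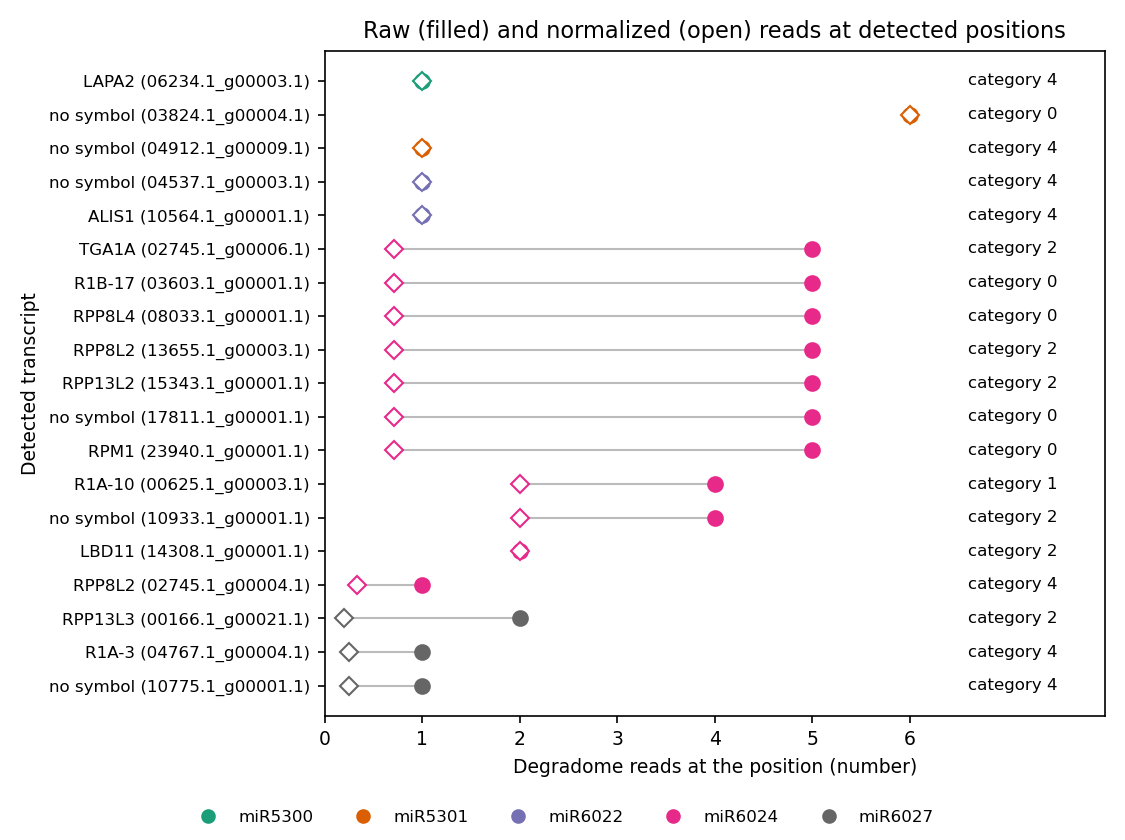
Raw reads (filled circles) and normalized reads (open diamonds) at the 19 detected positions, with the authors' category at the right and colours for the family. At the 7 miR6024 positions of 5 raw reads the normalized value is 0.714, while the unnamed miR5301 transcript has 6 of both.

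Outside the named receptors, the strongest site was that of sly-MIR5301-p3 on Sme2.5_03824.1_g00004.1, a transcript with no symbol or annotation. It had 6 raw and 6 normalized reads at nucleotide 253, in category 0, with a score of 3 and an authors' p of 0.00501. The same position was listed for hbr-MIR482-p3_1ss5GT, the miR482 sequence with the same seed, at a score of 4, so the 6 reads do not tell these small RNAs apart. The second sly-MIR5301-p3 site, on an RecQ helicase (Sme2.5_04912.1_g00009.1, nucleotide 1160), had 1 read and was also listed for hbr-MIR482-p3_1ss5GT. Single reads in category 4 were further found on LAPA2 (Sme2.5_06234.1_g00003.1, nucleotide 559) for miR5300, and on ALIS1 (Sme2.5_10564.1_g00001.1, nucleotide 860), a flippase subunit in Arabidopsis, and an unnamed transcript for stu-MIR6022-p3.

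Of the 179 predicted pairs 6 were in category 0 or 1 (3.35%, 1.24 to 7.15%), beside 0.682% of all predicted pairs, and the same number had an authors' p of at most 0.05, beside 0.661%. Among detected pairs these were 6 of 19 (31.6%, 12.6 to 56.6%), beside 128 of all 1010 (12.7%) in category 0 or 1 and 124 of them (12.3%) by the authors' p. Of the 6 only the miR5301 site on Sme2.5_03824.1_g00004.1 had reads that match 1 place. At 4 of the 6, all miR6024 sites, the same 5 raw and 0.714 normalized reads were listed. The shares and intervals count these 4 as separate pairs. Reads at more than 1 place were found in 13 of the 19 pairs (68.4%, 43.4 to 87.4%) and in 360 of all 1010 detected pairs (35.6%, 32.7 to 38.7%), which contain the 19. Of the 13, 7 were the miR6024 positions with the same 5 raw and 0.714 normalized reads, which the interval counts separately. Summed over the 19 positions, 60 raw reads came to 22.03 normalized reads.

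Of the NBS-LRR transcripts predicted for these families 40 had no listed read, some of them with closer matches than the 9 with reads. The 9 had scores of 3.5 or 4, whereas 16 of the 49 NBS-LRR pairs without reads had scores of at most 3. These 16 pairs lay on 13 transcripts, and 13 of the pairs were for miR6025, which had 7 small RNA reads in all. For miR5301 the closest were RGA3 (Sme2.5_11213.1_g00002.1) at 2.5 and RGA4 at 3 (Sme2.5_10927.1_g00001.1) and 3.5 (Sme2.5_01835.1_g00005.1). The RGA3 site began at nucleotide 544, as did that of the latter RGA4, and the former RGA4 site began at 550. For miR6024 they were RPPL1 (Sme2.5_07199.1_g00001.1), At1g50180 and R1B-17 (Sme2.5_23692.1_g00001.1), all at 3.5. For miR6025 the closest after RGA3 included R1B-23 (Sme2.5_00072.1_g00020.1) and R1B-19 (Sme2.5_00378.1_g00014.1), both at 2. R1C-3 (Sme2.5_00070.1_g00007.1) at 3, RPP13 at 4 and a second RPP13L3 at 4 were those of miR6027, and R1B-19 (Sme2.5_00108.1_g00008.1) at 3.5 and RGA4 and RGA2 at 4 those of miR6026.

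The list of NBS-LRR transcripts over the whole table gives the setting. It held 105 of 12937 transcripts, of which 49 were predicted for these 7 families (46.7%, 36.9 to 56.7%). Reads at a site of any small RNA were listed for 13 of the 105, beside 5.15% of all 12937. The 9 predicted and detected for these families had reads for 0 other small RNAs. The miR482 and miR2118 names, with more predicted transcripts (1723), had 19 NBS-LRR transcripts, 2 of them detected. Of their pairs, 53 of 1780 were detected (2.98%, 2.24 to 3.88%), beside 5.38% of all predicted pairs.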

How the data were processed

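Per the labels, small RNAs were sequenced from a TruSeq small RNA library and cleaved RNA ends from a degradome library. Programs and genome build are not given in the sources used here. The authors deposited a read count per small RNA sequence. Per the file headers the authors also gave each predicted pair an alignment score and, where detected, a raw read count, normalized reads and TPB (both signal values), a category score from 0 to 4 and a p-value, taken as unadjusted. TPB was 105.324 for each normalized read. Positions are nucleotides along the transcript.

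Families were taken from the miR number in the name. Pairs were counted as deposited, and transcripts 1 time per family or set. The members, the NBS-LRR rule, the other symbol groups and the named items (all detected transcripts with a symbol, annotation or category 0 or 1, and the 3 lowest-scoring undetected NBS-LRR transcripts per family) were chosen with earlier results of these data known. Of transcripts whose symbol matched, 2 lacked the ontology terms and were left out. No hypothesis test was made. Intervals came from SciPy 1.17.1, tables from pandas 2.3.3 with NumPy 2.4.6 under Python 3.11.15, and figures from matplotlib 3.10.9. Shares of reads are shares of the 135737 listed reads. Reads have no molecular identifiers, so intervals cover counting error only.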

Additional observations from a re-analysis of the deposited data

How the results depend on the processing

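The share of listed reads held by these families, 8.45%, was 10.8% without names that match ribosomal or transfer RNA, 10.8% among sequences of 21 and 22 nt, and 1.91% without miR5300 and miR5301. The share of detected pairs, 10.6%, was 4.47% when at least 1 normalized read was asked for and 5.30% without miR6024. That of detected combinations of a family and a transcript, 11.2% (19 of 169), was 4.73% and 5.67%. With only categories 0 to 2, or scores of at most 3, both shares stayed within the interval of the main value. At scores of at most 3 the detected pairs were 3 of 36 (8.33%), beside 530 of 6448 over all predicted pairs, so no excess was seen there. The share of NBS-LRR among predicted transcripts, 29.7%, was 45.4% among transcripts with a symbol or annotation, 39.4% at scores of at most 3, 48.5% for names with at least 10 reads and 0% from the annotation column alone, where none of the words searched occurs. The number of NBS-LRR transcripts in category 0 or 1 was 4, also with the authors' p of at most 0.05. It was 1 (R1A-10) when at least 1 normalized read was asked for. The 4 were among 58 NBS-LRR pairs, and 0.682% of all predicted pairs were in category 0 or 1. Of the 4, R1B-17, RPP8L4 and RPM1 had the same 5 raw and 0.714 normalized reads, so they are not separate signals. The alternatives without miR6024 and with at least 10 reads were added after the data were seen. No paired analysis was possible because each assay had 1 library. Of the 13 sequences 6 had under 10 reads, and 7 of the 19 detected positions had 1 raw read, so single reads decide those values.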

Other observations

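The other 56 NBS-LRR transcripts of the table were predicted for small RNAs outside the 7 families. Of these 56, 4 had reads, beside 5.15% of all transcripts in the table. An N transcript (Sme2.5_04714.1_g00003.1) had 3 raw and 1.67 normalized reads at nucleotide 448 for stu-MIR482b-p3_1ss5AG, in category 0. The N transcript Sme2.5_20551.1_g00001.1 had 2 raw and 0.667 normalized reads at nucleotide 442 for 2 miR482 sequences. Another N transcript (Sme2.5_15154.1_g00002.1) had 1 read at nucleotide 103 for a miR6020 sequence and for an unnamed small RNA. In tobacco, miR6020 is known with miR6019 as a regulator of N. At4g11170 (Sme2.5_04766.1_g00001.1) had 1 read for an unnamed small RNA. Over all 105 NBS-LRR transcripts, the miR6020 name was predicted on 5, the miR482 names on 19 and the unnamed small RNAs on 32. Further families were predicted too, such as miR414 and miR6426 on 6 each. A transcript can be counted under several names, so these counts do not divide the 56.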
